A study of Rattus norvegicus with 9 samples.

Results

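Fibronectin and the integrin subunits that hold cells to the matrix were followed in cultured rat cardiac fibroblasts of 3 ages. The 7 genes, chosen by name, were Fn1, the alpha subunit genes Itga1, Itga5 and Itga7, and the beta subunit genes Itgb1, Itgb3 and Itgb5, of 17337 genes in the count table. All 7 had enough counts to be tested. Fibroblasts from Sprague Dawley rats were taken at embryonic day 18 (fetal), at postnatal day 1 (neonatal) and at 7 weeks (adult), with 3 libraries per age. The labels name no treatment and no genetic change. Cells of every age were grown at passage 0 until confluent, in T75 flasks, in DMEM with 10% fetal bovine serum, antibiotics and ascorbic acid, so all 9 libraries describe cells in serum on a culture surface. The labels name no sort, and they do not say whether replicates came from separate animals or flasks, so the p-values measure the spread between these libraries, which may be technical.

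The libraries held 13392825 to 13810825 assigned counts in adult and 16241217 to 22850491 in fetal and neonatal cells. Levels are given in CPM, counts per 1000000 counts after TMM scaling. Of 10 fibroblast markers, Tcf21 had the lowest level but 1, at 6.91 CPM in fetal replicate 3, and Col1a2 the lowest, at 0.0531 to 0.976 CPM over the libraries. The annotation lists Col1a2 as 2 sets of 52 exon intervals with equal lengths on chromosome 4 (29529854 to 29564781 and 31534225 to 31569152), the only gene of the lists for which this was found. By default featureCounts leaves out reads that align to more than 1 place, so the Col1a2 value was not read as its expression. The 10 markers summed to 26495 to 53252 CPM in fetal, 70675 to 76919 in neonatal and 26667 to 34608 in the adult libraries, mostly from Col1a1 and Col3a1. Without those collagens the other 8 summed to 4050 to 4401, 5330 to 5364 and 6620 to 6879 CPM, highest in the adult libraries. Most of that sum was Vim, at 3364 to 3945, 4197 to 4285 and 4806 to 5784 CPM. By the edgeR test (adjusted p under 0.05) 4 of the 10 markers were higher and 0 lower in neonatal than fetal cells. Of all genes tested, 18.3% were higher and 18.0% lower. In adult cells 5 markers were higher and 3 lower than in fetal cells (34.9% and 35.5% of all genes). Against neonatal cells 3 were higher and 4 lower in adult cells (31.6% and 31.8%). Markers of other cells moved with age. The 12 cardiomyocyte markers summed to 8039 to 12094 CPM in fetal, 5534 to 6106 in neonatal and 306 to 320.3 in the adult libraries, where Myh6, Myh7, Myl2, Myl7, Ryr2 and Nppa were each at 0 counts in 1 or 2 libraries. Tnnt2 alone was at 303 to 316 CPM in the adult libraries, and the other 11 summed to 5887 to 9251, 3894 to 4429 and 2.91 to 4.64 CPM. The 12 macrophage markers summed to 14.99 to 70.2, 161 to 178 and 4103 to 5844 CPM, with Cd163 at 0 counts in every fetal and neonatal library. The 8 smooth muscle and pericyte markers summed to 1441 to 2287, 2711 to 2780 and 312 to 699 CPM, and the 10 endothelial markers to 23.6 to 30.4, 37.0 to 40.8 and 112 to 124 CPM. Fetal replicate 3 stood apart from the other fetal libraries. Its fibroblast marker sum was 26495 CPM, against 50095 and 53252 CPM, a gap that lay mostly in Col1a1 and Col3a1. The sum of the other 8 markers, mostly Vim, showed no such gap, but single markers did. Lum was at 46.0 CPM against 162 and 164 CPM, and Dcn at 19.1 against 63.5 and 67.9 CPM. Thy1, Tcf21 and Ddr2 were also lower than in the other fetal libraries, while Pdgfra and Vim were higher. Fetal replicate 3 was also lower in summed cardiomyocyte markers (8039 CPM against 11238 and 12094) and smooth muscle and pericyte markers (1441 against 2287 and 2260). It was higher in summed macrophage markers (70.2 CPM against 15.2 and 14.99) and endothelial markers (30.4 against 23.6 and 24.2). Member results against fetal cells are therefore given with and without fetal replicate 3.

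Fibronectin is a large dimeric glycoprotein that cells secrete and then pull into fibrils at their surface. Integrins are heterodimers of 1 alpha and 1 beta subunit that span the membrane, bind matrix outside the cell and couple to actin inside it. The beta1 subunit pairs with many alpha subunits, among them alpha5 for fibronectin, alpha1 for collagens and alpha7 for laminins, while beta3 and beta5 pair with alphav and bind vitronectin and other RGD-bearing ligands. In the heart, fibroblast integrins are known to link the cell to interstitial matrix, and alpha7 is known chiefly as the laminin receptor of muscle.

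The integrin genes were higher in neonatal than in adult cultures. Itga1, Itgb1 and Itgb3 were called higher in neonatal than in both other ages. Itga5, Itgb5 and Itga7 were called lower in adult than in both other ages with no call for the step from fetal to neonatal cells. Itga7 had the largest adult difference, 11.4-fold below fetal and 18.5-fold below neonatal cells, and Fn1, at 1.12% to 2.75% of all counts, spread widely among the fetal libraries. Between neonatal and fetal cells 3 of the 7 genes were called, against 36.3% of all 11337 genes tested: 3 were higher (18.3% of all genes) and 0 lower (18.0%). Between adult and fetal cells 4 were called, against 70.5% of all genes: 4 were lower (35.5%) and 0 higher (34.9%). Between adult and neonatal cells 6 were called, against 63.5% of all genes: 6 were lower (31.8%) and 0 higher (31.6%). A call is an edgeR adjusted p under 0.05 over all genes tested. The median log2 fold changes of the 7 genes were 0.70, -0.60 and -1.09 in these comparisons, against -0.01, -0.01 and -0.01 for all genes. Libraries of the compared ages did not overlap for 5, 4 and 7 of the 7 genes, against 57.4%, 71.8% and 76.1% of all genes tested. Without fetal replicate 3 the medians of the 7 genes were 0.40, -0.62 and -1.09, the values of Itga7, Itgb5 and Itgb1. More genes were called throughout in that fit. Of the 7 genes, 5 were then called between neonatal and fetal cells, 4 higher and 1 lower, against 40.6% of all 11519 genes tested in that fit (21.0% higher, 19.6% lower). All 7 were called lower between adult and fetal cells, against 74.8% of all genes called (37.3% higher, 37.5% lower). All 7 were also called lower between adult and neonatal cells, against 72.2% (36.1% higher, 36.2% lower). Each age enters 2 of the 3 comparisons, so they share libraries and are not independent. These are bulk libraries, in which fewer cells of a type and less RNA per cell cannot be told apart.

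**Figure D1:**
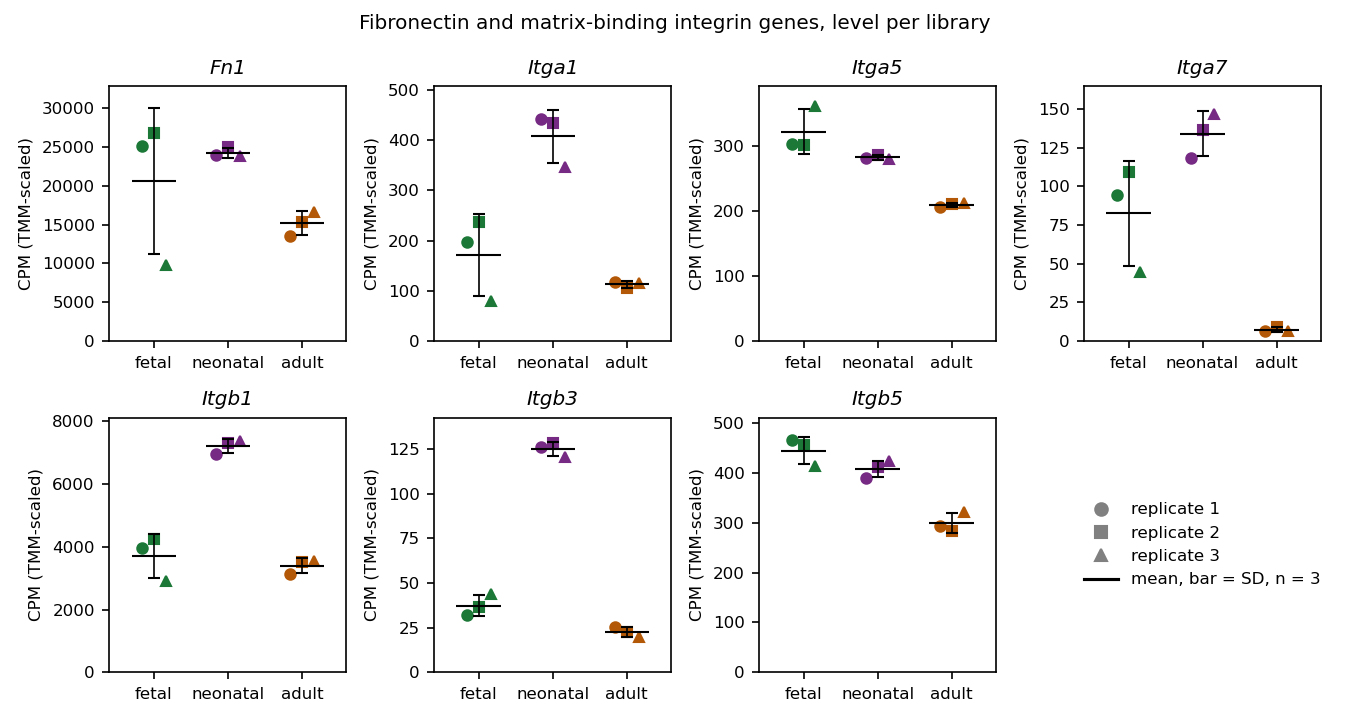
Level of each of the 7 genes in TMM-scaled counts per 1000000 counts (vertical axis, from 0) in the 3 fetal, 3 neonatal and 3 adult libraries (points), with mean and SD. Itga1, Itgb1 and Itgb3 are highest in all 3 neonatal libraries, Itga7 is at 6.20 to 9.101 CPM in the adult ones, and fetal replicate 3 (triangle) lies far below the other fetal libraries for Fn1.

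RefSeq promoter windows (assembly GRCr8) were matched for 4 of the 7 genes, Itga1, Itga5, Itgb1 and Itgb5. They are shown because they hold a pair from each group above: Itga1 and Itgb1 were called higher in neonatal than fetal cells, while Itga5 and Itgb5 were called only against adult cells. Each is the 250 bases before the annotated start, 5′ to 3′ on the gene's strand, with matches to the searched motifs in capitals.
Itga1, chr2:48545284-48545533, minus strand: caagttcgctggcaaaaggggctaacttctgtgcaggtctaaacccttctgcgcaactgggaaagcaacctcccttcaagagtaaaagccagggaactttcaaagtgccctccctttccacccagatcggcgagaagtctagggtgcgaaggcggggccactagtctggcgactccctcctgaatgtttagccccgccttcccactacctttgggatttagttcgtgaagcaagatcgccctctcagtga
Itgb1, chr19:73602027-73602276, plus strand: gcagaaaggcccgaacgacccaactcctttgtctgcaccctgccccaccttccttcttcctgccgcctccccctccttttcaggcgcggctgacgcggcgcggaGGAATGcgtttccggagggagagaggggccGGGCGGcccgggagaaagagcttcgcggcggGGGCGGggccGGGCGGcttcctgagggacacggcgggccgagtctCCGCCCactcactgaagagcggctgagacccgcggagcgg
Itga5, chr7:136381306-136381555, minus strand: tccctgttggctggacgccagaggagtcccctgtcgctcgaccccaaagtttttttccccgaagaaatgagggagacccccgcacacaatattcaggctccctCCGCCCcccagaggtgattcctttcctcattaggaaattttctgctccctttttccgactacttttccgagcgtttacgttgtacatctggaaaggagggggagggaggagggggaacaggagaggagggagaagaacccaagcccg
Itgb5, chr11:80449374-80449623, minus strand: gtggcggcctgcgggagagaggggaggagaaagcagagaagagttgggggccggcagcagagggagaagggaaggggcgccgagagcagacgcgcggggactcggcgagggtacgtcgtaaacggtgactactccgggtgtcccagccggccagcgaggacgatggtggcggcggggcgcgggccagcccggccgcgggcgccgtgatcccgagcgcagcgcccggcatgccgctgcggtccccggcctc
Both strands were searched for the GC box that Sp1 family factors bind, spelled GGGCGG. The AP-1 site, bound by Fos and Jun proteins, was searched as TGANTCA. For the TEAD factors, which act with the coactivators YAP and TAZ, the letters were GGAATG. The TATA box was spelled TATAAA, and the CArG box of serum response factor was searched too. Overlapping matches were counted separately. The Itgb1 window held 4 GC boxes, which began 116, 85, 75 and 40 bases before the start, and 1 TEAD match that began 146 bases before it. The Itga5 window held 1 GC box, 147 bases before the start. No other match was found in the 4 windows. Among all 33469 windows of this length, 30.5% held a GC box, 12.1% a TEAD match, 6.34% an AP-1 site, 12.9% a TATA box and 1.497% a CArG box. No motif searched was shared by 1 pair and lacking in the other. GC content was 54.4% for Itga1, 55.6% for Itga5, 71.2% for Itgb1 and 74.4% for Itgb5, against a median of 51.2% over all windows.

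Fn1 (chromosome 9, 78900113 to 78969013, minus strand, rn6; 8331 exon bases) ranked 2 or 3 by count in every library. Its level was 25170, 26798 and 9724 CPM in fetal replicates 1 to 3, 23925, 24976 and 23812 CPM in the neonatal, and 13542, 15334 and 16619 CPM in the adult libraries. Neonatal libraries were close to each other and all above the adult ones, while the fetal libraries reached both above the neonatal and below the adult ranges. The means were 20564 ± 9423 (SD, n = 3) fetal, 24238 ± 642 neonatal and 15165 ± 1546 adult CPM. No pair of ages was called. The log2 fold change of neonatal to fetal cells was 0.24 (SE 0.31, edgeR adjusted p = 0.580), that of adult to fetal cells -0.44 (SE 0.31, edgeR adjusted p = 0.234), and that of adult to neonatal cells -0.68 (SE 0.31, edgeR adjusted p = 0.0875). The calls changed when 1 library was left out. Without fetal replicate 3 the fetal mean was 25984 CPM, and adult cells were lower than fetal by 0.78 on the log2 scale (log2 -0.78, edgeR adjusted p = 6.16e-06) and than neonatal by 0.68 (log2 -0.68, edgeR adjusted p = 9.86e-06). Over all alternatives these adjusted p-values reached 0.596 and 0.961, the latter when the trend of the levels on exon length was removed, which left an adult to neonatal difference of -0.02. Neonatal and fetal cells differed by -0.10 (edgeR adjusted p = 0.374) without that library, within 0.298 to 0.794 over its alternatives. The counts are per gene and do not separate the splice forms of fibronectin.

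Itga5 (chromosome 7, 144970444 to 144993652, minus strand) encodes the alpha5 subunit of the main fibronectin receptor. It was at 302, 301 and 362 CPM in fetal, 282, 285 and 279 CPM in neonatal and 206, 211 and 212 CPM in the adult libraries. The 3 ages did not overlap, and fetal replicate 3, the library with the least Fn1, had the most Itga5. Adult cells were 1.54-fold below fetal (log2 -0.62, SE 0.08, edgeR adjusted p = 8.04e-05) and 1.35-fold below neonatal cells (log2 -0.43, SE 0.08, edgeR adjusted p = 0.00107). Fetal and neonatal cells, neighbours in the order, were not told apart (log2 -0.19, SE 0.08, edgeR adjusted p = 0.0853). With fetal replicate 3 left out, Itga5 differed by -0.10 between neonatal and fetal (edgeR adjusted p = 0.120) and by -0.53 between adult and fetal cells (edgeR adjusted p = 1.12e-06). The adult to neonatal call ended with the length trend removed (log2 -0.10, edgeR adjusted p = 0.332, within 3.00e-06 to 0.332 over all alternatives).

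Itga1 (chromosome 2, 47127404 to 47281387, minus strand) encodes the alpha1 subunit of a collagen receptor. Its fetal libraries were at 198, 236 and 79.7 CPM, the neonatal at 442, 434 and 347 CPM and the adult at 118, 105 and 116 CPM. Every neonatal library was above all others, and fetal replicate 3 fell below the adult libraries. Neonatal cells were 2.38-fold above fetal (log2 1.25, SE 0.33, edgeR adjusted p = 0.0180) and 3.61-fold above adult cells (log2 -1.85 for adult to neonatal, SE 0.33, edgeR adjusted p = 0.00119). Leaving out a neonatal library ended the fetal comparison's call, for replicate 1 (edgeR adjusted p = 0.0571) or 2 (edgeR adjusted p = 0.0590), the top of a range from 0.000346 over all alternatives. Dropping fetal replicate 3 left Itga1 higher in neonatal cells by 0.91 (edgeR adjusted p = 0.000367). Adult and fetal cells did not differ past the threshold (log2 -0.60, SE 0.33, edgeR adjusted p = 0.128), but did without fetal replicate 3 (log2 -0.95, edgeR adjusted p = 6.53e-05, within 6.53e-05 to 0.432 over all alternatives).

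Itga7 (chromosome 7, 3355259 to 3383891, plus strand) encodes the alpha7 subunit of a laminin receptor. It shares exon bases with Mettl7b, and featureCounts by default assigns reads in such bases to neither gene. It was at 94.5, 109 and 44.4 CPM in fetal, 119, 137 and 147 CPM in neonatal and 6.20, 9.101 and 6.44 CPM in the adult libraries. In raw counts the adult libraries held 81, 126 and 86, and the other 6 held 835 to 2945. Adult cells were 18.5-fold below neonatal (log2 -4.21, SE 0.35, edgeR adjusted p = 1.15e-05) and 11.4-fold below fetal cells (log2 -3.51, SE 0.34, edgeR adjusted p = 2.02e-05), the largest differences among the 7 genes in these comparisons. Neonatal libraries were all above the fetal ones, without a call (log2 0.70, SE 0.29, edgeR adjusted p = 0.0877); without fetal replicate 3 the difference was 0.40 (edgeR adjusted p = 0.0382, within 0.0382 to 0.204 over all alternatives). The adult to fetal difference was -3.81 without it (edgeR adjusted p = 3.28e-08). The sum of the cardiomyocyte markers was also lowest in the adult libraries (306 to 320.3 CPM, or 2.91 to 4.64 CPM without Tnnt2). So was that of the smooth muscle and pericyte markers (312 to 699 CPM). The part of these cell types in the Itga7 result was not tested.

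Itgb1 (chromosome 19, 61677542 to 61725537, plus strand) encodes the beta1 subunit shared by the receptors above. Its levels were 3965, 4255 and 2920 CPM in fetal, 6961, 7287 and 7375 CPM in neonatal and 3116, 3516 and 3537 CPM in the adult libraries. The neonatal libraries stood apart from the rest, and the fetal and adult ranges overlapped. Neonatal cells were 1.94-fold above fetal (log2 0.96, SE 0.14, edgeR adjusted p = 0.00106) and 2.13-fold above adult cells (log2 -1.09 for adult to neonatal, SE 0.14, edgeR adjusted p = 0.000118). Adult and fetal cells differed by -0.13 (SE 0.14, edgeR adjusted p = 0.410). Without fetal replicate 3 the neonatal to fetal difference was 0.81 (edgeR adjusted p = 7.92e-06) and the adult to fetal one -0.28 (edgeR adjusted p = 0.00332, within 0.00332 to 0.880 over all alternatives), and with the length trend removed the latter was 0.07.

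Itgb3 and Itgb5 encode alternative partners of alphav, and they differed in course. Itgb3 (chromosome 10, 92667872 to 92783413, plus strand; 2150 exon bases) was at 32.1, 36.4 and 43.8 CPM in fetal, 126, 128 and 120.5 CPM in neonatal and 25.2, 22.8 and 19.8 CPM in the adult libraries. The 3 ages did not overlap. Neonatal cells were 3.34-fold above fetal (log2 1.74, SE 0.12, edgeR adjusted p = 2.25e-05) and 5.54-fold above adult cells (log2 -2.47 for adult to neonatal, SE 0.13, edgeR adjusted p = 4.15e-07), and adult cells were 1.66-fold below fetal (log2 -0.73, SE 0.12, edgeR adjusted p = 0.000517). Every alternative kept these 3 Itgb3 calls, which without fetal replicate 3 were 1.87 for neonatal to fetal (edgeR adjusted p = 1.21e-07) and -0.61 for adult to fetal cells (edgeR adjusted p = 0.000140).

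Itgb5 (chromosome 11, 70056500 to 70172164, minus strand) was at 465, 455 and 413 CPM in fetal, 389, 411 and 423 CPM in neonatal and 294, 283 and 321 CPM in the adult libraries. The adult libraries were below all others, and the fetal and neonatal ranges overlapped. Adult cells were 1.48-fold below fetal (log2 -0.57, SE 0.08, edgeR adjusted p = 0.000121) and 1.36-fold below neonatal cells (log2 -0.44, SE 0.08, edgeR adjusted p = 0.000766). Leaving out fetal replicate 3, the adult to fetal difference was -0.62 (edgeR adjusted p = 3.80e-06). Neonatal and fetal cells differed by -0.12 (SE 0.08, edgeR adjusted p = 0.225), and by -0.17 without fetal replicate 3 (edgeR adjusted p = 0.0455, within 0.0125 to 0.522 over all alternatives). With the length trend removed the adult to neonatal difference was -0.20 (edgeR adjusted p = 0.0504, within 3.83e-07 to 0.0504 over all alternatives).

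**Figure D2:**
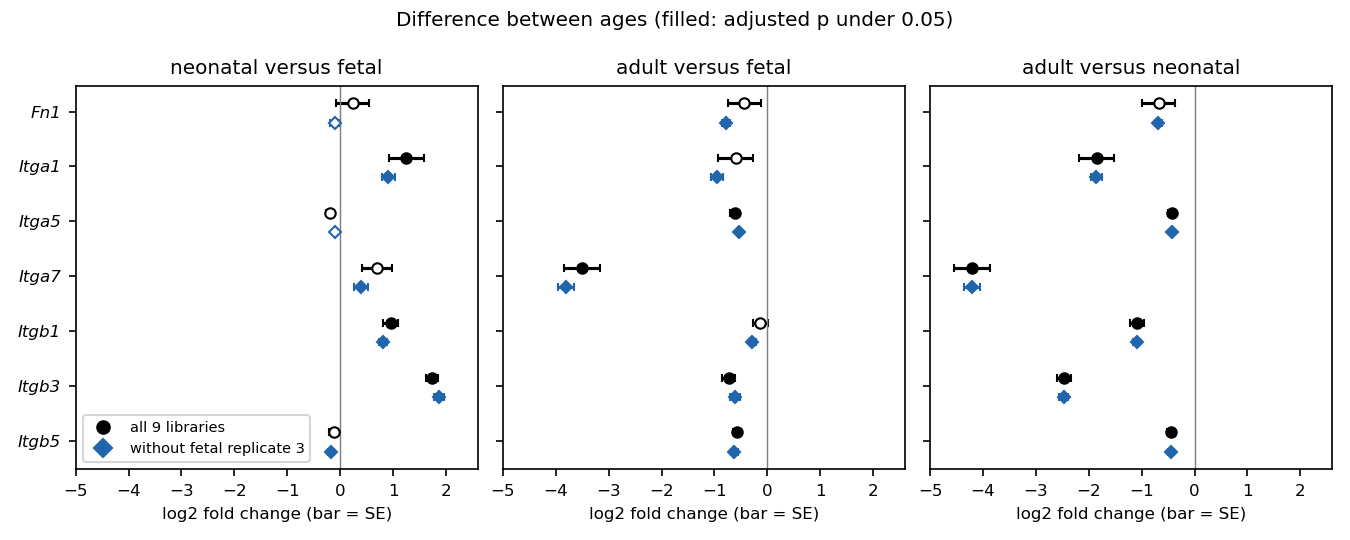
Log2 fold change of each gene (horizontal axis, bar = SE) for the 3 pairs of ages, from all 9 libraries (circles) and without fetal replicate 3 (diamonds), filled where the edgeR adjusted p is under 0.05. Itga7 lies farthest from 0 in the adult comparisons, Itgb3 in neonatal against fetal cells, and all 7 diamonds are filled in both adult panels.

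Levels of different genes were compared per length, in TPM, in which each count is divided by the gene's annotated exon bases and each library is scaled to the same sum. In TPM, Fn1 was at 5562 ± 2443 in fetal, 6148 ± 172 in neonatal and 3363 ± 395 in the adult libraries, and Itgb1 at 2300.0 ± 375, 4162 ± 142 and 1711 ± 155 (SD, n = 3). By TPM Fn1 ranked 8 to 36 and Itgb1 16 to 85 among all genes of a library. The 8 alpha genes measured here that can pair with beta1 (Itga1, Itga4, Itga5, Itga6, Itga7, Itga8, Itga10 and Itga11) summed to 625 ± 135, 947 ± 36.8 and 367 ± 49.9 TPM. Itgb1 was 3.72 ± 0.244 times that sum in fetal, 4.40 ± 0.277 in neonatal and 4.69 ± 0.255 in the adult libraries. Its mean TPM was thus above the summed alpha genes at each age. Alpha subunits not analysed here, Itgav among them, would add to the sum.

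Itgb1 made up most of the beta transcripts at every age, while the shares of Itgb3 and Itgb5 moved in opposite directions between neonatal cells and the other ages. Of the summed TPM of the 3 beta genes, Itgb1 held 87.8% ± 1.82 in fetal, 92.1% ± 0.0774 in neonatal and 91.0% ± 0.680 in the adult libraries. Itgb5 held 10.6% ± 1.31, 5.18% ± 0.0681 and 8.01% ± 0.591, and no library of 1 age overlapped another. With all 9 libraries the level of Itgb5 itself was not called between neonatal and fetal cells (log2 -0.12, edgeR adjusted p = 0.225). Itgb1, in the same sum, was higher in neonatal cells (log2 0.96, edgeR adjusted p = 0.00106). Itgb3 held 1.57% ± 0.539, 2.72% ± 0.145 and 1.04% ± 0.189. All 3 shares differed among ages by an exact permutation test over the 1680 arrangements of the libraries (p = 0.00357 for Itgb1 and Itgb5, the smallest it can give, and p = 0.00714 for Itgb3; adjusted over 9 shares and ratios 0.0161, 0.0161 and 0.0214). The log2 ratio of Itgb3 to Itgb5 was -2.80 ± 0.31 in fetal, -0.93 ± 0.10 in neonatal and -2.96 ± 0.25 in the adult libraries (exact permutation p = 0.0214, adjusted 0.0321). Thus Itgb3 came closest to Itgb5 in neonatal cells. The fetal shares without fetal replicate 3 averaged 88.8%, 9.90% and 1.26% for Itgb1, Itgb5 and Itgb3, and the exact permutation test over 560 arrangements gave adjusted p = 0.00804, 0.00804 and 0.0193, with 0.0402 for the Itgb3 to Itgb5 ratio. For a single pair of ages, 3 against 3 libraries cannot give a p below 0.1.

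Among the 3 alpha genes Itga5 was the largest in adult and Itga1 the largest in neonatal cells. This order holds within the 3 genes only. In the adult libraries Itga8 (104 ± 5.27 TPM) and the collagen receptor gene Itga11 (94.2 ± 41.6 TPM) averaged above Itga5 (88.0 ± 3.16 TPM). In the neonatal libraries both, at 208 ± 4.15 and 198 ± 2.20 TPM, averaged below Itga1 (218 ± 27.6 TPM). Itga5 held 48.1%, 43.8% and 72.3% of the summed TPM of the 3 alpha genes in fetal, 31.1%, 31.0% and 33.6% in neonatal and 59.9%, 62.3% and 60.9% in the adult libraries. Itga1 held 35.0%, 38.2% and 17.7% in fetal, 54.2%, 52.3% and 46.4% in neonatal and 38.1%, 34.7% and 37.0% in the adult libraries. Itga7 held 10.0% to 18.0%, 14.8% to 20.0% and 2.03% to 3.04%. Each share differed among ages by the exact permutation test (p = 0.0143 for Itga5 and 0.0250 for Itga1 and Itga7, all 0.0321 adjusted). The log2 ratio of Itga5 to Itga1 was -0.68 ± 0.18 in neonatal and 0.74 ± 0.10 in the adult libraries, and 0.46, 0.20 and 2.03 in the fetal ones (exact permutation p = 0.0357, adjusted 0.0402). Fetal replicate 3 was thus far from its age. With it left out the fetal shares averaged 46.0% for Itga5, 36.6% for Itga1 and 17.5% for Itga7 (exact permutation test, adjusted p = 0.00804, 0.0402 and 0.0402), and the Itga1 share of adult and fetal libraries then differed by 0.0085 percentage points. The log2 ratio of Itga5 to Fn1, receptor to ligand, was -4.94 ± 0.97 in fetal, -5.50 ± 0.02 in neonatal and -5.25 ± 0.13 in the adult libraries and did not differ past the threshold (exact permutation p = 0.657, adjusted 0.657). Without fetal replicate 3 the fetal mean was -5.50 and the adult minus fetal difference turned from -0.31 to 0.25 (exact permutation p = 0.0714 over the 3 ages, adjusted 0.0714).

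**Figure D3:**
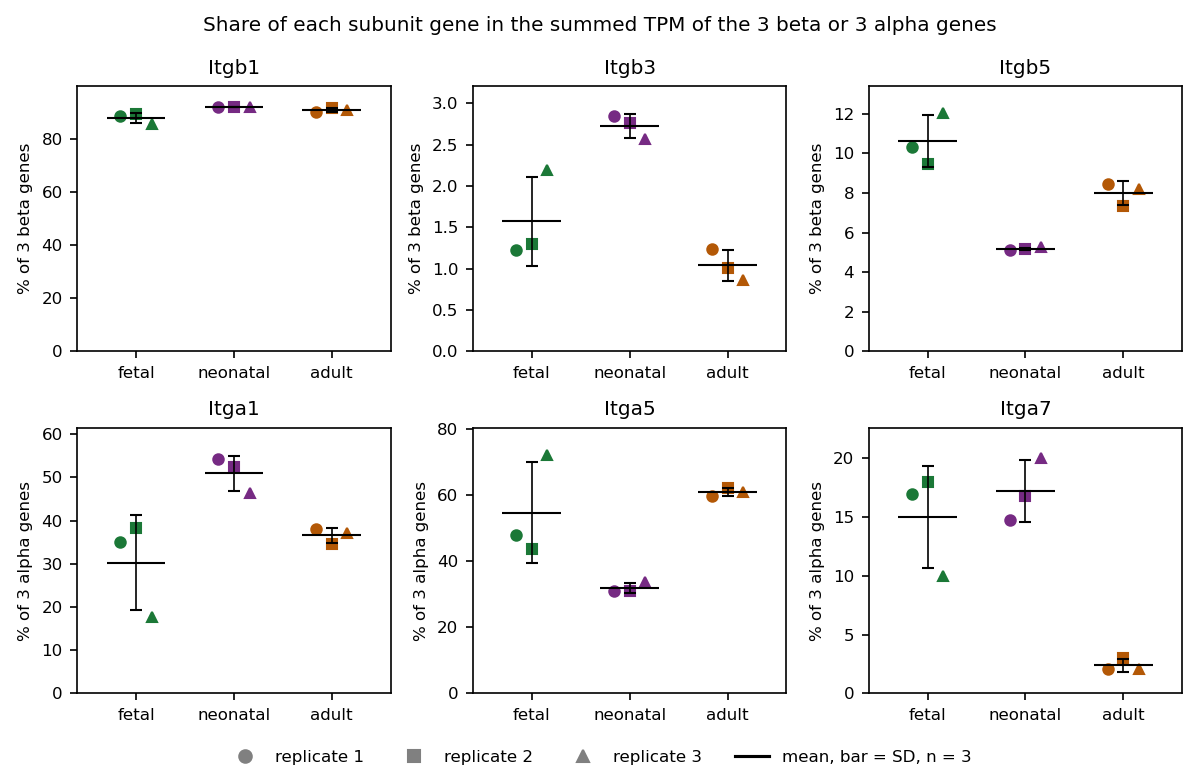
Share of each beta gene (top) and alpha gene (bottom) in the summed TPM of its 3 genes (vertical axis, %, from 0) for each library by age, with mean and SD. The share of Itgb5, not its level, falls from 9.49% to 12.1% in fetal libraries to 5.12% to 5.25% in neonatal ones, where Itgb1 is higher. The Itga1 and Itga5 shares swap order between neonatal and adult libraries.

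Of 13 other matrix-binding integrin genes listed for comparison, 8 were analysed here and 7 had enough counts to be tested. Itga2, Itga2b, Itga3, Itga9 and Itgav were not analysed here, and Itga10, a collagen receptor subunit, was at 0.106 to 0.449 CPM. Between neonatal and fetal cells 1 gene was called higher and 1 lower, between adult and fetal cells 1 higher and 3 lower, and between adult and neonatal cells 0 higher and 4 lower. The totals of 2, 4 and 4 of 7 lay below the 36.3%, 70.5% and 63.5% of all genes called. By direction, 18.3%, 34.9% and 31.6% of all genes were called higher, and 18.0%, 35.5% and 31.8% lower. The list's median log2 fold changes were 0.61, -0.99 and -0.88, where -0.99 was the value of Itgb4. Without fetal replicate 3 the medians were 0.56 (again Itgb4), -0.50 and -0.89. Itgb4 then differed by 0.95 between adult and fetal cells. Without fetal replicate 3 the counts were 2 higher and 1 lower, 0 higher and 3 lower, and 0 higher and 4 lower. In that fit 40.6%, 74.8% and 72.2% of all genes were called, with 19.6%, 37.5% and 36.2% lower.

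Itga11, which encodes another collagen receptor subunit of fibroblasts, was at 160, 157 and 78.8 CPM in fetal, 469, 471 and 460 CPM in neonatal and 132, 285 and 342 CPM in the adult libraries. It was 3.53-fold higher in neonatal than fetal cells (log2 1.82, SE 0.36, edgeR adjusted p = 0.00558), and by 1.56 without fetal replicate 3 (edgeR adjusted p = 0.0280). The adult libraries spread widely and overlapped the fetal ones. Adult cells were called higher than fetal (log2 0.94, edgeR adjusted p = 0.0401), but not without fetal replicate 3 (log2 0.67, edgeR adjusted p = 0.170). Itga8, whose product binds fibronectin and nephronectin with beta1, was at 456, 476 and 204 CPM in fetal, 575, 589 and 567 CPM in neonatal and 348, 332 and 309 CPM in the adult libraries. Adult cells were 1.75-fold below neonatal cells for Itga8 (log2 -0.81, edgeR adjusted p = 0.0252). Without fetal replicate 3, Itga8 was also called higher in neonatal than fetal (log2 0.31, edgeR adjusted p = 0.00174) and lower in adult than fetal cells (log2 -0.50, edgeR adjusted p = 1.22e-05), where with it the values were 0.61 (edgeR adjusted p = 0.103) and -0.20 (edgeR adjusted p = 0.515).

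Itga4, which encodes a receptor subunit for fibronectin and VCAM1, was 5.31-fold lower in adult than fetal cells (log2 -2.41, edgeR adjusted p = 0.000143) and 4.70-fold lower than in neonatal cells (log2 -2.23, edgeR adjusted p = 0.000298). The Itga4 difference of adult to fetal cells without fetal replicate 3 was -2.71 (edgeR adjusted p = 2.63e-06). Itga6, for a laminin receptor subunit, fell 3.599-fold from neonatal to adult cells (log2 -1.85, edgeR adjusted p = 0.000739) and was 2.08-fold lower in adult than fetal cells (log2 -1.05, edgeR adjusted p = 0.0121), the latter not without fetal replicate 3 (log2 -0.91, edgeR adjusted p = 0.0705). Itgb6, whose product pairs with alphav chiefly in epithelia, was at 8.53, 9.74 and 18.0 CPM in fetal, 1.98 to 2.74 CPM in neonatal and 0.225 to 0.433 CPM in the adult libraries. It was called lower at each later age (log2 -2.32 for neonatal to fetal, edgeR adjusted p = 0.000663, and -1.91 without fetal replicate 3, edgeR adjusted p = 2.29e-05; log2 -2.77 for adult to neonatal, edgeR adjusted p = 0.000440). Itgb4, a subunit of the hemidesmosome receptor of epithelia, was at 11.1 CPM in fetal replicate 3 and at 1.01 to 3.98 CPM in the other 8 libraries. Itgb8, for a subunit that pairs with alphav, was at 1.20 to 7.95 CPM and was not called in any pair (edgeR adjusted p = 0.265, 0.830 and 0.163).

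**Figure D4:**
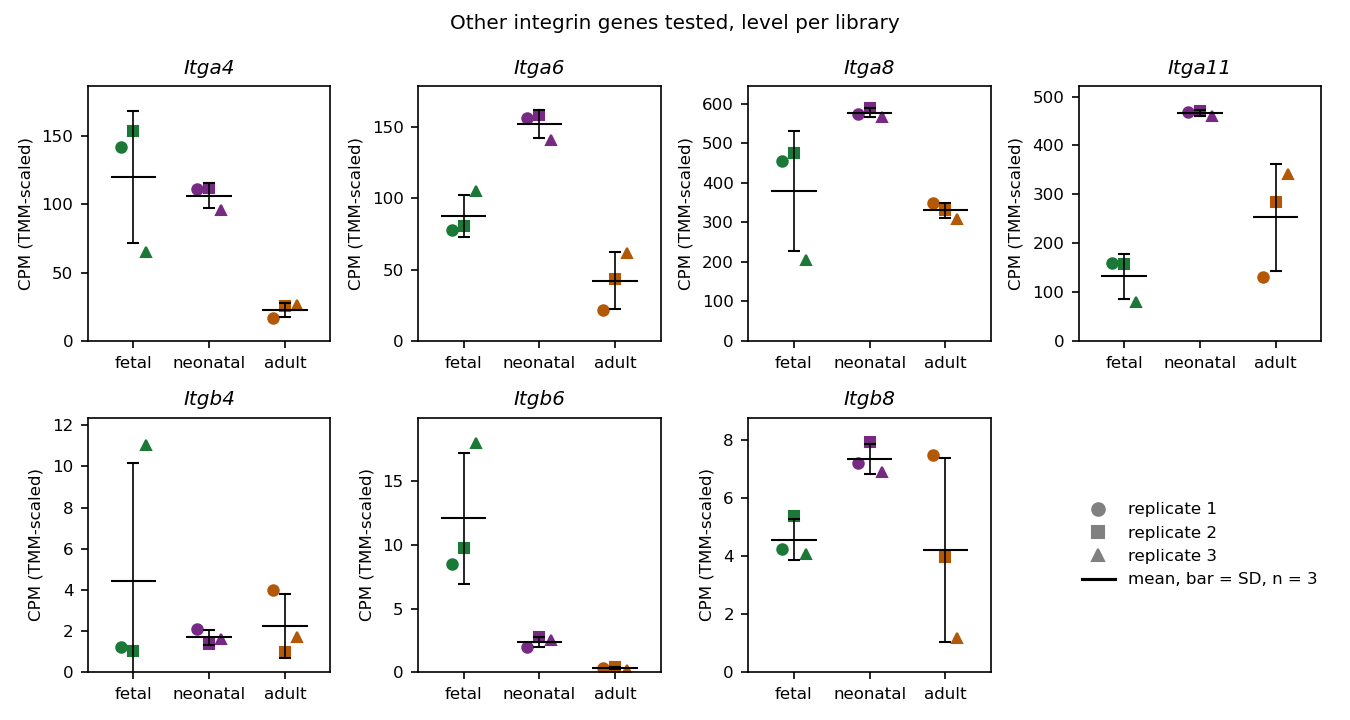
Level of the 7 other integrin genes tested, in TMM-scaled counts per 1000000 counts (vertical axis, from 0), in each library by age, with mean and SD. Itga11 and Itga8 are highest in all neonatal libraries, Itga4 and Itga6 lowest in the adult ones, and Itgb4 and Itgb6 highest in fetal replicate 3.

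Of 20 ligands listed for the receptors these genes encode (fibrillar and type IV collagens, laminins, and RGD-bearing proteins), 16 were analysed here and 15 tested. Between neonatal and fetal cells 5 were called higher and 1 lower, between adult and fetal cells 3 higher and 7 lower, and between adult and neonatal cells 2 higher and 11 lower. Of the 15, 6, 10 and 13 were called, against 36.3%, 70.5% and 63.5% of all genes. The shares of all genes called higher were 18.3%, 34.9% and 31.6%, and lower 18.0%, 35.5% and 31.8%. Col1a2 was among those tested and was not called. The list's medians were 0.59, -0.39 and -1.04. The last is the value of Col1a2 itself (log2 -1.04, edgeR adjusted p = 0.272), so it was not read as the list's typical change. Leaving out fetal replicate 3 gave 6 higher and 2 lower, 3 higher and 9 lower, and 2 higher and 10 lower. That fit called 40.6%, 74.8% and 72.2% of all genes, with 19.6%, 37.5% and 36.2% lower. Among collagens that alpha1 binds, Col3a1 was 2.37-fold higher in neonatal than fetal cells (log2 1.25, edgeR adjusted p = 0.00647) and lower in adult than neonatal cells by 1.70 on the log2 scale (log2 -1.70, edgeR adjusted p = 0.000413), directions shared with Itga1 and Itgb1. The neonatal to fetal difference of Col3a1 was 0.96 without fetal replicate 3 (edgeR adjusted p = 1.82e-05). Tnc, the gene of tenascin-C, fell 3.30-fold from fetal to neonatal (log2 -1.72, edgeR adjusted p = 0.000110) and 4.60-fold from neonatal to adult cells (log2 -2.20, edgeR adjusted p = 4.45e-06), the first of these being -1.90 without fetal replicate 3 (edgeR adjusted p = 1.33e-08). Spp1, which encodes osteopontin, a ligand of beta3 integrins, went the other way from Itgb3. It was at 96.6 to 98.4 CPM in neonatal and 2969 to 3203 CPM in the adult libraries, 31.5-fold higher (log2 4.98, edgeR adjusted p = 1.15e-05). Macrophages are known to express Spp1, the macrophage markers were highest in the same adult libraries (4103 to 5844 CPM), and their part in it was not tested. Vtn, for vitronectin, was at 0 to 0.0550 CPM and was not tested.

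Of 27 listed genes of the adhesion complex that forms on integrin tails, 25 were analysed here and tested. Between neonatal and fetal cells 7 were called higher and 6 lower, between adult and fetal cells 7 higher and 14 lower, and between adult and neonatal cells 5 higher and 15 lower. The totals of 13, 21 and 20 of 25 stood beside 36.3%, 70.5% and 63.5% of all genes. The lower ones stood beside 18.0%, 35.5% and 31.8%, and the higher ones beside 18.3%, 34.9% and 31.6%. The medians were 0.05, -0.65 and -0.65. Leaving out fetal replicate 3 gave 9 higher and 5 lower, 6 higher and 17 lower, and 5 higher and 15 lower. All genes called then came to 40.6%, 74.8% and 72.2%, with 19.6%, 37.5% and 36.2% lower. Vcl, for vinculin, which ties the complex to actin, was at 1593 CPM in fetal, 2270 in neonatal and 618 in adult cells on average. Vcl was 1.43-fold higher in neonatal than fetal cells (log2 0.51, edgeR adjusted p = 0.0129; 0.37 without fetal replicate 3, edgeR adjusted p = 0.000850) and was among the genes lower in adult cells. Itgb1bp2, for melusin, a muscle protein that binds the beta1 tail, fell 33.4-fold from fetal to adult cells (log2 -5.06, edgeR adjusted p = 2.02e-08; -4.96 without fetal replicate 3, edgeR adjusted p = 3.51e-10), from 27.8 to 38.0 CPM to 0.899 to 1.083 CPM, beside the fall of the cardiomyocyte markers. Fermt3, for kindlin-3, the integrin activator of blood cells, was 35.8-fold higher in adult than neonatal cells (log2 5.16, edgeR adjusted p = 5.82e-06), beside the rise of the macrophage markers. Fermt2, for the kindlin of most other cells, was 258.5 to 285 CPM in adult and 618 to 661 CPM in the other libraries, lower by 1.25 on the log2 scale in adult than neonatal cells (log2 -1.25, edgeR adjusted p = 4.84e-07). The part of the marker cells in the Itgb1bp2 and Fermt3 results was not tested.

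Of 10 listed cofactors of fibronectin binding and fibril assembly, all were tested. Called genes numbered 3 higher and 2 lower between neonatal and fetal, 4 higher and 3 lower between adult and fetal, and 4 higher and 4 lower between adult and neonatal cells, with medians of -0.08, -0.08 and 0.26. The totals of 5, 7 and 8 of 10 were read beside 36.3%, 70.5% and 63.5% of all genes. Of all genes, 18.3%, 34.9% and 31.6% were called higher, and 18.0%, 35.5% and 31.8% lower. Leaving out fetal replicate 3 gave 3 higher and 3 lower, 4 higher and 5 lower, and 4 higher and 5 lower. The shares of all genes called in that fit were 40.6%, 74.8% and 72.2%, with 19.6%, 37.5% and 36.2% lower. Sdc2, for syndecan-2, a heparan sulfate proteoglycan of the cell surface, was 2.03-fold higher in neonatal than fetal cells (log2 1.02, edgeR adjusted p = 0.00430) and fell 2.78-fold to adult cells (log2 -1.47, edgeR adjusted p = 0.000180). Fbln1, for fibulin-1, which binds fibronectin in the matrix, was 10.0-fold higher in adult than neonatal cells (log2 3.33, edgeR adjusted p = 0.000499), with adult libraries at 809, 340 and 220.2 CPM. Plaur, for the urokinase receptor, was 1.76-fold lower in neonatal than fetal cells (log2 -0.82, edgeR adjusted p = 0.00934). Tgm2, for transglutaminase 2, a fibronectin-binding co-receptor of integrins, was 1.58-fold lower in adult than fetal cells (log2 -0.66, edgeR adjusted p = 0.0102), with overlapping libraries. Leaving out fetal replicate 3, these differences against fetal cells were 0.81 for Sdc2, -0.57 for Plaur and -0.88 for Tgm2 (edgeR adjusted p = 0.000901, 0.00347 and 7.20e-07).

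Correlations of log2 CPM over the 9 libraries describe which genes had a course of the most similar shape, whatever its size. The libraries share 3 ages, so any genes that differ by age correlate. Among the 7 genes, Itga1 and Itgb1 were most alike (r = 0.955), followed by Itgb1 and Itgb3 (0.904), Itga7 and Itgb5 (0.899) and Itga5 and Itgb5 (0.881), and Fn1 and Itga5 were least alike (0.148). That last value rested on fetal replicate 3, without which Fn1 and Itga5 had r = 0.982. Over the same 8 libraries r was 0.948 for Itga1 and Itgb1, 0.983 for Itgb1 and Itgb3, 0.911 for Itga7 and Itgb5 and 0.973 for Itga5 and Itgb5. Among 8322 other genes with a mean of at least 10 CPM, those nearest to Fn1 were Slc6a9 (r = 0.980), Fasn (0.980) and Tbxa2r (0.978), and 0.973% of genes reached r above 0.9. Nearest to Itgb1 were Sgcb (0.993), Plce1 (0.992) and Tyro3 (0.990), to Itgb3 Akap2 (0.990), Add1 (0.988) and Spata13 (0.988), and to Itga1 Fbxl20 (0.995), Sel1l (0.992) and RGD1308428 (0.991). These 9 genes, like the genes they resemble, had their highest mean in neonatal cells: Plce1 was at 33.8 ± 7.42, 84.1 ± 2.25 and 32.7 ± 5.29 CPM in fetal, neonatal and adult libraries. For Itga5 the nearest were Taf2 (0.998), Chn1 (0.996) and Casc5 (0.995), for Itgb5 Cth (0.986), Tiprl (0.985) and Fbxl7 (0.985), and for Itga7 Ppp1r15b (0.997), Usp9x (0.996) and Nfatc3 (0.995). For Itga5, Itgb5 and Itga7, 14.996%, 12.9% and 12.4% of genes passed 0.9, so the shapes of their courses were common ones in these libraries. For Itga1, Itgb1 and Itgb3 those shares were 3.02%, 2.51% and 1.81%. The correlation does not measure the size of a change. Itga7 averaged 82.7, 134 and 7.25 CPM in fetal, neonatal and adult libraries, but Ppp1r15b 85.1, 87.4 and 76.8 CPM. Itga1 averaged 171, 408 and 113 CPM, but Fbxl20 9.80, 12.1 and 9.22 CPM. The nearest genes named here, without fetal replicate 3, had r from 0.959 to 0.998 with the same members.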

How the data were processed

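RNA-seq libraries numbered 9. Per the submitters' processing notes, the tools included Trimmomatic 0.39, STAR 2.5.2b and featureCounts of Subread 1.6.3; per the file headers, the deposited raw counts were made by featureCounts with an rn6 gene annotation and default (unstranded) settings. The authors' second table holds normalized signal values, which equal the counts over a size factor for each library, and was not used for tests. The test was that of edgeR 4.0.16, run in R 4.3.3 (filterByExpr, TMM, robust quasi-likelihood fit of age on all 9 libraries, Benjamini-Hochberg adjustment over 11337 genes); DESeq2 1.42.0, other scalings, no filter, a length correction, a replicate block and leaving out each library were alternatives; list counts, share tests and correlations without fetal replicate 3 were added after seeing the data. The fit was tested on simulated data. Standard errors come from the fold change and F statistic. Named genes were the 7 genes, all other integrins listed, the largest called change in each direction and pair of the other lists (where the higher age averaged 10 CPM or more), and the 3 most correlated genes per member; other names were chosen after their values were seen. The members and lists were chosen with earlier results of these data known. No same-age pair of libraries agreed within counting error.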

Additional observations from a re-analysis of the deposited data

How the results depend on the processing

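Of 336 member log2 fold changes under alternatives (21 results, 16 settings each), 317 kept direction and side of the threshold, 12 passed it anew, 4 lost it and 3 changed sign. Library size alone as the scaling moved the median of all genes to -0.18 (neonatal to fetal) and -0.12 (adult to fetal) and gave 29.0% of neonatal to fetal calls as higher, against 50.4%; it called 5 members there, with Itga5 at -0.37 and Itgb5 at -0.29. DESeq2 called Itga7 (0.69, neonatal to fetal) and Fn1 (-0.67, adult to neonatal), and a fit of only those 2 ages called Fn1 (-0.68). Removing the length trend turned Fn1 (0.23) and Itgb1 (0.073) between adult and fetal cells and lost Itga5 (-0.10) and Itgb5 (-0.20) between adult and neonatal cells; the cause was not tested. Leaving out 1 library gave 2476 to 4679 genes and 2 to 5 members called between neonatal and fetal, 4 to 7 members between adult and fetal and 6 to 7 between adult and neonatal cells. The lowest gene count, 2476, was without neonatal replicate 2, with 2607 and 2575 without replicates 1 and 3. Over those fits neonatal to fetal values ran from -0.10 to 0.47 for Fn1 (negative without fetal replicate 3), 0.91 to 1.56 for Itga1, 0.40 to 0.95 for Itga7 and -0.17 to -0.086 for Itgb5. Adult to fetal values ran from -0.78 to -0.21 for Fn1, -0.95 to -0.30 for Itga1 and -0.28 to -0.026 for Itgb1, and adult to neonatal from -0.75 to -0.60 for Fn1. With CPM in place of TPM the Itgb1 share differed by -1.81 percentage points between adult and neonatal libraries, and the Itgb3 share by 0.689 between neonatal and fetal and -1.004 between adult and neonatal. A replicate block called 3713, 7801 and 6985 genes and 3, 4 and 6 members, and changed no member's call. Same-numbered libraries of different ages, as deviations from their age means, correlated at -0.0649 to 0.0521. Deviations within an age sum to 0, so these values cannot decide whether the numbers pair libraries.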
